A study of Homo sapiens with 12 samples.

Results

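Local background at H3K27me3 peaks was raised on chromosome 7, on 17q, on 1q and on 2p in all 6 ChIP samples of SH-SY5Y neuroblastoma cells. The 4 regions were chosen on this readout, the local background that the peak caller had set under each peak, and their limits were chr1 from 150 to 225 Mb, chr2 from 0 to 45 Mb, the whole of chr7 and chr17 from 45 Mb to its end (hg38). Every peak that started there was taken, which gave 127728 of the 1338572 peaks in the 6 lists (9.54%). Chromosome 7 held 75514 of them, 1q held 33248, 2p held 10694 and 17q held 8272. The remaining autosomes, with 1039506 peaks, served for comparison.

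SH-SY5Y is an established human neuroblastoma line, and the study asked whether the loss of Tau, the microtubule-binding protein encoded by MAPT, changes H3K27 trimethylation. H3K27me3 ChIP-seq was done in parental cells that express Tau (WT) and in 2 MAPT knock-out lines, 231K and 232P, with 2 replicates for each. No agent or treatment is named in the labels for any of the 3 groups, so genotype and line are the only differences named. Whether each knock-out line is 1 clone is not given in the sources used here. An input library is listed for each of the 6 samples, but only the ChIP peak lists were analysed. The lists of line 232P carry peak names that start with 231P, which is the name of another Tau-depleted SH-SY5Y line of the study. The labels were followed, and which of these lines the lists come from cannot be told from the names, so 232P below means the samples labelled so.

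H3K27me3 is laid down by Polycomb Repressive Complex 2 (PRC2), whose catalytic subunit is EZH2, and covers repressed developmental genes either as sharp promoter peaks or as wide domains. Neuroblastomas often gain 17q, the part of 2p that carries MYCN and ALK, whole chromosome 7 or parts of 1q, and SH-SY5Y is known for extra material of these kinds. DNA copy number was not measured in these files, so a higher number of DNA copies and any other source of raised background cannot be told apart here.

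A strong mark from each of 1q, 2p and chromosome 7 shows what lay over this background. The window of 200 bases around the WT replicate 1 summit is given for the highest ranked gene of the examined lists that had a mark at its transcription start site (TSS) in all 6 samples and no annotated exon in the window. The plus strand of hg38 is printed from 5′ to 3′, and capitals mark CG dinucleotides.
CACNA1E on 1q, chr1:181316854-181317053: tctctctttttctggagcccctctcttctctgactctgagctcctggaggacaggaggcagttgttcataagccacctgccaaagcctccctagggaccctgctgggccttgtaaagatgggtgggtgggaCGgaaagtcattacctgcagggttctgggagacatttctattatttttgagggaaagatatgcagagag
OSR1 on 2p, chr2:19360328-19360527: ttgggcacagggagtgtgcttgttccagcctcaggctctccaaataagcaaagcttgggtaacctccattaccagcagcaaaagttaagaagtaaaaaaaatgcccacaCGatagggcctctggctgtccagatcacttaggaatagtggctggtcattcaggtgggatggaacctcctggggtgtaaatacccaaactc
EVX1 on chromosome 7, chr7:27244717-27244916: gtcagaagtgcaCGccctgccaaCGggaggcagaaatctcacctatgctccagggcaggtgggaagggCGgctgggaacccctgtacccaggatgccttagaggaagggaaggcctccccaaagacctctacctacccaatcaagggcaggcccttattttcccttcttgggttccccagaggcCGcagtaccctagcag
The CACNA1E and OSR1 windows lay upstream of the annotated genes, and that of EVX1 lay in an intron. They held 1, 1 and 4 CG dinucleotides and 51.5%, 49.0% and 60.0% G and C. The median window of all WT replicate 1 peaks in the 4 regions held 1 CG, as did that of the other autosomes. The summit over CACNA1E, a calcium channel subunit gene, had 28 reads over a background of 2.03 reads. Under OSR1, a zinc finger factor of mesoderm development, 27 reads stood over 3.18. The summit of EVX1, a homeobox gene beside the HOXA cluster, had 25 reads over 1.52, which is the lowest background found in that sample. Raised background therefore did not lie under every peak of the 4 regions.

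The background itself was taken back from the lists. The peak caller's fold enrichment and p-value together fix a whole number of reads at the summit and the background under it, and the recovered pairs gave back every deposited −log10 p-value to within 0.000590. The lowest background of a sample, called its floor, was 1.52 reads in WT replicate 1 and 1.38 in replicate 2. Line 231K had floors of 1.44 and 1.40 reads, and 232P had 1.01 and 1.27. The floor was lowest in 232P replicate 1, which also had the fewest peaks (147118, against 199677 to 285826 in the other 5 lists).

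In the 4 regions the median background was 1.5 and 1.42 times the floor in WT replicates 1 and 2. Line 231K had 1.48 and 1.40, and line 232P had 1.45 and 1.41. On the other autosomes the medians lay between 1.00 and 1.01 in all 6 samples. Between 1.43% and 7.90% of peaks in the regions sat less than 2% above the floor, against 52.7% to 62.9% elsewhere. Since these are the values that chose the regions, they are given as a description without a test. Single regions were alike, with medians from 1.34 times the floor (17q in WT replicate 2 and in 231K replicate 2) to 1.5 (chromosome 7 and 1q in WT replicate 1, 17q in 232P replicate 1).

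**Figure D1:**
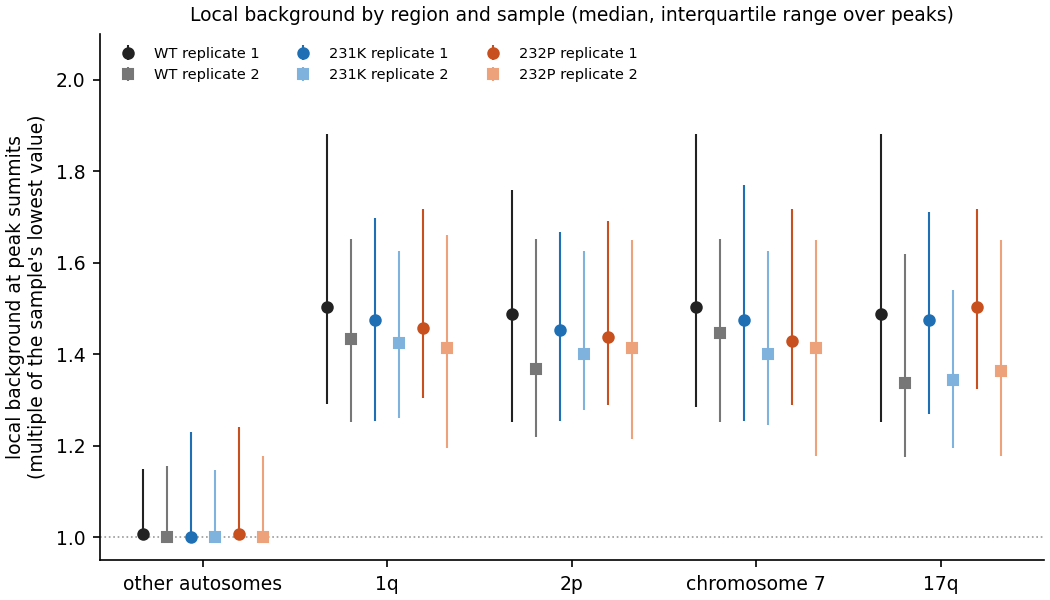
Local background at peak summits, as a multiple of the lowest value of the same sample (vertical axis), for the other autosomes and the 4 regions; points are medians over peaks, bars run from the first to the last quartile, and colours and shapes give the 6 samples. Medians of the 4 regions lie between 1.34 and 1.5 in all 6 samples, those of the other autosomes between 1.00 and 1.01.

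Background was raised in nearly all bins that held enough peaks to be read. Of the 48 bins of 5 Mb in the regions that held at least 20 peaks in every sample, 47 had a median background of 1.2 times the floor or more. Only 2 of the 343 such bins elsewhere did. The exception inside was the first 5 Mb of chromosome 7, at 1.17. Outside, 1 of the 2 bins adjoined the rule's limit on 1q (225 to 230 Mb, at 1.35) and the other was the first bin with peaks on chromosome 21 (5 to 10 Mb, at 1.86).

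Values just inside and just outside the limits showed how sharply each region was bounded. On chromosome 17 the last 5 Mb before the limit had a median over the samples of 1.01 times the floor, and the first 5 Mb after it had 1.43. On chromosome 1 the step was smaller, from 1.1 just below 150 Mb to 1.29 just above it. At the other end of the 1q region the background did not return to the floor, since the bins from 225 to 230 and from 230 to 235 Mb, outside the rule, still had 1.35 and 1.56. On chromosome 2 the background was 1.58 in the last 5 Mb inside and 1.33 in the first 5 Mb outside, and reached 1.01 from 50 to 55 Mb. Both bins beside the limit on chromosome 2 held as few as 5 peaks in a sample. Some sequence with raised background thus lay beyond the limits on 1q and 2p.

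**Figure D2:**
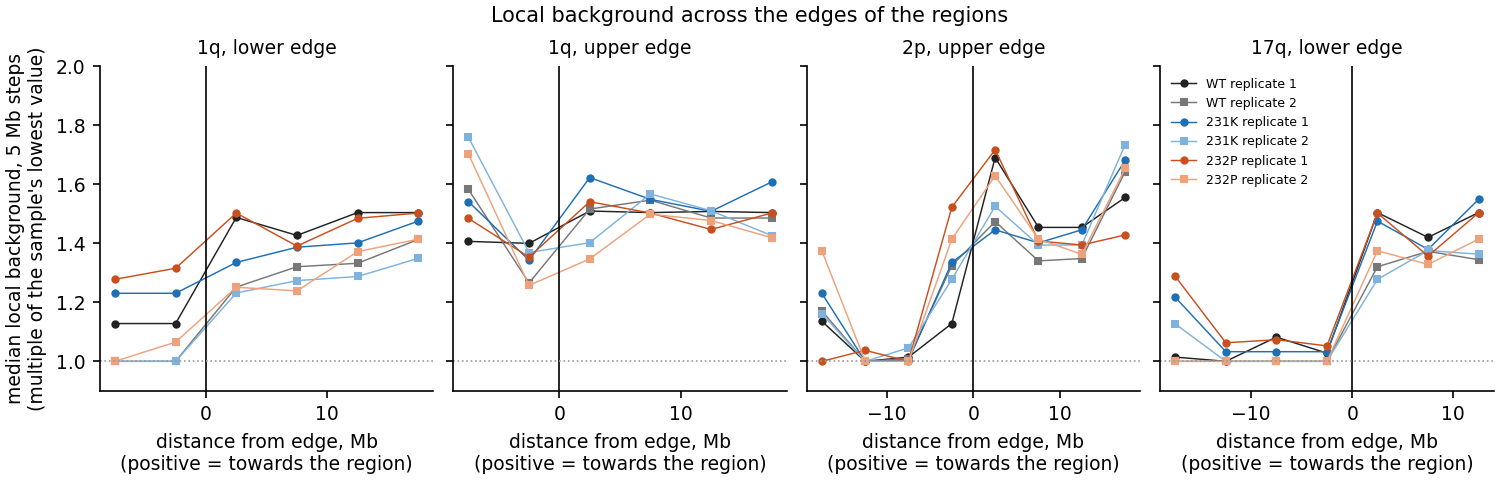
Median local background in steps of 5 Mb (multiple of the lowest value of the sample, vertical axis) against distance in Mb from each edge of the regions that lies within a chromosome, positive towards the region, for the 6 samples; steps with fewer than 5 peaks in a sample are left out. The step is sharp at 17q (1.01 to 1.43 over the samples) and at the upper edge of 1q the background stays at 1.35 and 1.56 in the next 2 steps outside.

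The background of the regions overlapped between the genotypes. The median background of the regions over that of the other autosomes was 1.49 and 1.42 in WT. It was 1.48 and 1.40 for line 231K, while 232P gave 1.44 and 1.41. The Tau-KO samples were lower than WT by a mean of 0.0257, and the values of the groups overlapped. No test is attached to this difference, since the regions were chosen on the background. Replicate 1 was higher than replicate 2 in each of the 3 groups. The replicates also differed in their peak calls, with a shortest peak of 175 to 179 bp in replicate 1 and of 240 to 262 bp in replicate 2. Within replicate 1 the difference from WT was -0.0176 for 231K and -0.0562 for 232P, and within replicate 2 it was -0.0217 and -0.00710.

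Summits were higher over the raised background, while fold enrichment was nearly the same. Mean summit height was 11.7 reads in the regions and 9.11 elsewhere in WT replicate 1. The ratio of these means was between 1.25 and 1.29 in 5 samples and 1.16 in 232P replicate 1. Median fold enrichment in the regions was 0.948 to 1.015 times that of the other autosomes, and on 2p alone it was 0.900 to 0.954 times. The median −log10 q-value was higher in the regions by 0.339 and 0.304 in WT and by 0.389 and 0.428 in 231K. It was higher by 0.172 in 232P replicate 2 and equal in 232P replicate 1. On 2p it was lower than elsewhere in 5 of 6 samples, with a difference of -0.244 in 232P replicate 2, and without chromosome 7 the mean difference over the samples was 0.0673, against 0.272 with it. A peak over a higher background needs more reads to pass the same threshold, so heights of called peaks cannot be compared without the background.

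Peaks were also wider in the regions. Median widths were 530 bp in WT replicate 1 and 888 bp in WT replicate 2, against 451 and 705 bp on the other autosomes. The ratio was between 1.14 (232P replicate 1) and 1.35 (232P replicate 2), and all 6 samples were above 1. Peaks of at least 5 kb made up 10.1% of the region peaks in WT replicate 2 and 3.66% elsewhere. Chromosome 7 accounted for much of this, with width ratios of 1.16 to 1.47, while those of 2p ran from 0.987 to 1.11. Raised background and wide peaks therefore did not always go together.

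Whether peaks were denser in the regions depended on their strength. Over all peaks the mean ratio of densities was 0.973, and over peaks with −log10 q of 5 or more it was 1.47. The regions held 83.5 and 55.6 peaks per Mb of determined sequence in WT replicates 1 and 2, and the other autosomes 90.4 and 70.2. The ratio of densities was 0.924 and 0.792 in WT. Line 231K had 0.950 and 0.792, whereas 232P had 1.47 and 0.913. Over all peaks only 232P replicate 1 was denser in the regions. The regions differed among themselves: 17q was sparse (0.424 to 0.891 times the other autosomes) as was 2p (0.532 to 0.616), whereas 1q (0.927 to 1.47) and chromosome 7 (0.884 to 1.85) were close to or above the other autosomes. Gene density did not order them in the same way, with 12 protein-coding genes per Mb on 17q, 9.69 on 1q, 5.85 on chromosome 7 and 5.20 on 2p.

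**Figure D3:**
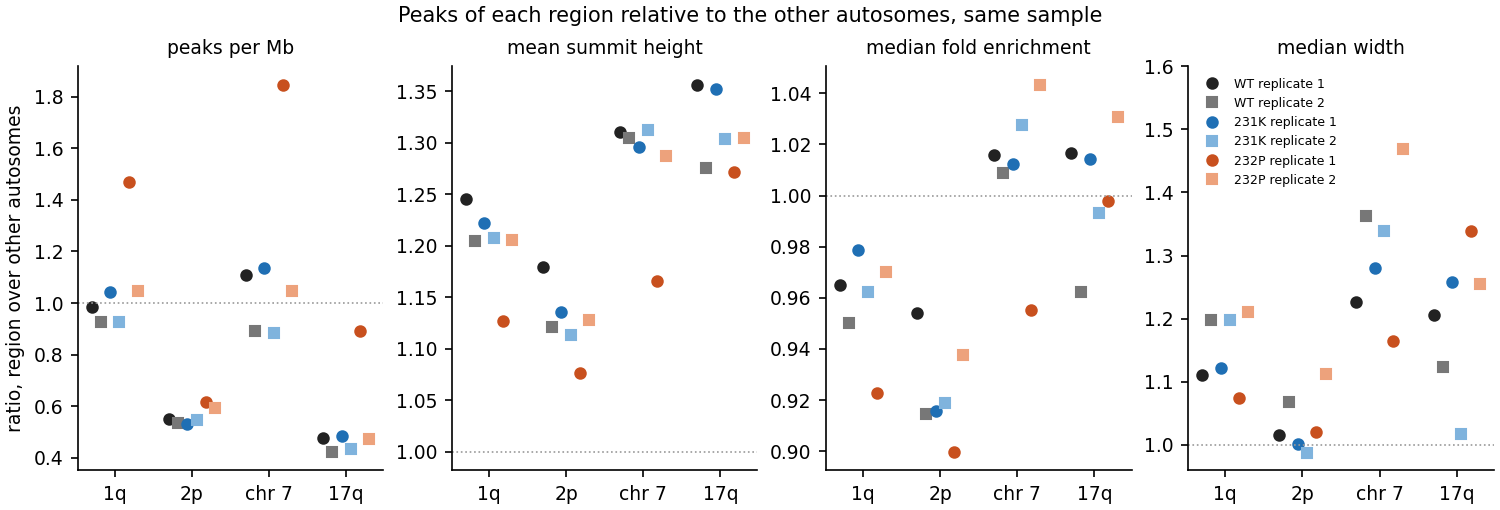
Ratio of each region to the other autosomes in the same sample (vertical axes, dotted line at 1) for peaks per Mb, mean summit height, median fold enrichment and median width; colours and shapes give the 6 samples, and the axes do not start at 0. Heights are above 1 in all 4 regions, fold enrichment stays within 0.900 to 1.04, and densities of 2p and 17q are below 1 in all 6 samples.

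The share of autosomal peaks that lay in the regions was 10.7% and 9.34% in WT, with 11.0% and 9.34% for line 231K, while 232P had 16.0% and 10.6%. The mean was 10.0% ± 0.981 in WT, 10.2% ± 1.17 in 231K and 13.3% ± 3.83 in 232P (SD, n = 2 each). Tau-KO samples exceeded WT by 1.71 percentage points, which the exact two-sided permutation test did not separate from the spread between samples (p = 0.667, smallest possible 0.0667). Within replicate 1 the difference was 0.261 points for 231K and 5.30 for 232P, and within replicate 2 it was -0.00167 and 1.27. The 232P value rests on replicate 1: without that sample the Tau-KO excess fell to 0.278 points.

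Peaks of the 4 regions together lay at start sites more often than elsewhere and were less often intergenic. In WT replicate 1, 4.97% of region peaks overlapped the 1 kb on either side of a protein-coding TSS, 34.2% overlapped a gene body only and 60.8% were intergenic. On the other autosomes these shares were 3.41%, 29.3% and 67.3%. The order was the same in all 6 samples, with 4.75 to 6.17% at a TSS in the regions and 3.36 to 4.86% elsewhere. On 17q, the region with the most genes per Mb, 10.2 to 13.1% of peaks were at a TSS and 38.4 to 41.5% were intergenic, while 2p had 69.4 to 74.2% intergenic and a lower TSS share than the other autosomes in all 6 samples (2.90% in WT replicate 1). Chromosome 7 was lower in 232P replicate 1 alone (4.04%, against 4.86%). In WT replicate 1 the median G and C content of the 200 bases around summits was 41.0% in the regions and 41.5% elsewhere, and in WT replicate 2 both were 40.5%. In 232P replicate 1 both were higher, at 43.5% and 45.5%, and its peaks were the narrowest (median 381 bp and 334 bp).

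To follow marks between samples, overlapping peaks of the 6 lists were merged, and a mark counted as present in a sample when any of its peaks overlapped. The regions held 16739 marks, of which 3511 (21.0%) were in all 6 samples and 6880 (41.1%) in a single sample. The study states fewer peaks per sample and fewer marks than the deposited lists give, so these are not its peak sets, and how one came from the other is not given in the sources used here. On the other autosomes 13.5% of 202861 marks were in all 6 samples and 44.1% in 1. The overlap of 2 samples, as the Jaccard index (shared marks over all marks of the pair), was higher in the regions in all 15 pairs. The mean excess of 0.0800 was 0.0277 with peaks merged within 1 kb and 0.0425 without chromosome 7. It averaged 0.0822 over the 12 pairs of different genotype and 0.0709 over the 3 replicate pairs. Greater sharing was thus also found where genotype did not differ.

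Of 6032 region marks present in both WT samples, 231K replicates 1 and 2 retained 81.5% and 88.7%, against 78.6% and 83.8% of the 64723 such marks on the other autosomes. In 232P the shares were 64.9% and 82.8% in the regions and 49.5% and 74.0% elsewhere. Retention was higher in the regions in 4 of 4 Tau-KO samples, by 2.89 and 4.90 points in 231K (3.89 ± 1.42, SD, n = 2) and by 15.4 and 8.81 points in 232P (12.1 ± 4.69). The mean was 8.01 points (exact sign-flip permutation test over the 4 samples, two-sided, p = 0.125). This is the smallest p that 4 samples allow, so the design could not reach 0.05. The 4 values share the same WT marks and are 2 replicates of each of 2 lines, so they are not independent. With peaks merged within 1 kb the mean difference was 4.46 points (exact sign-flip permutation p = 0.25), and 231K replicate 1 turned to -0.193 points while the other 3 samples stayed above 0. WT replicates behaved in the same direction, as 71.7% of replicate 1 marks were found in replicate 2 in the regions and 62.3% elsewhere, and 63.7% and 62.1% of replicate 2 marks were found in replicate 1.

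Over the 4 regions together, losses were fewer. A mark was called lost in a line when both WT samples held it and neither sample of the line did. Line 231K lost 464 region marks (7.69%, Wilson 95% interval for counting error only 7.05 to 8.39%), where 10.7% were lost over all chromosomes, X included, and 9.65% on the other autosomes. Line 232P lost 790 (13.1%, interval 12.3 to 14.0%), where 22.9% were lost over all chromosomes and 20.8% on the other autosomes. In the opposite direction, 231K gained 325 region marks that neither WT sample held (6.63%, with 7.75% over all chromosomes), and 232P gained 77 (1.57%, with 0.977%). Losses outnumbered gains in both lines, 1.43 to 1 in 231K and 10.3 to 1 in 232P. Over all chromosomes, X included, these ratios were 1.38 and 23.4. Such counts depend on list size, and the 232P lists held fewer peaks (147118 and 199677) than those of WT (285826 and 222191). The part of list size was not tested. In reverse, WT replicates 1 and 2 held 85.5% and 90.6% of the region marks of both 231K samples. They held 93.8% and 96.4% of those of both 232P samples. The lost share in the regions minus that elsewhere was -1.96 points in 231K and -7.65 points in 232P, and its size depended on the samples, the merging and the rule for presence. With replicate 2 or replicate 1 as the sole sample of the line it was -4.81 and -3.09 points for 231K and -8.95 and -14.8 for 232P. Without WT replicate 2 it was -6.06 and -12.0 points, and with peaks merged within 1 kb it was -0.373 and -3.20. When presence needed 50% coverage it was -9.13 and -21.7 points, and with peaks of −log10 q of 5 or more it was -12.2 in 232P.

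Retention differed between regions of like background. In 232P replicate 1 it was 75.1% on 17q, 66.5% on chromosome 7, 63.6% on 1q and 53.2% on 2p, with median backgrounds of 1.5, 1.43, 1.46 and 1.44 times the floor. In 232P replicate 2 the span was narrower, with 84.5% on 1q, 82.9% on chromosome 7, 80.0% on 17q and 79.5% on 2p, so that 17q was not the highest there. In 231K, 2p kept 74.4% and 82.9% in the 2 replicates, less than the 78.6% and 83.8% of the other autosomes, and it lost 11.0% of its marks in this line, more than the 9.65% elsewhere. The marks of both WT samples had a median width of 3659 bp on chromosome 7, 3366 bp on 1q, 2798 bp on 17q and 2677 bp on 2p, against 2324 bp elsewhere.

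Retention rose steeply with the width of a mark. Any overlapping peak counted as presence, so a wider mark had more chances to be found again. When marks were ranked into 5 classes of equal number by the bases that WT peaks covered, retention rose from 39.4% in the narrowest to 99.6% in the widest class of the regions. On the other autosomes it rose from 37.3% to 99.4%. Weighting the other autosomes to the width distribution of the regions cut the mean difference from 8.01 to 1.3 points. Weighting to width and WT strength together (the lower −log10 q-value of the 2 WT samples) left 0.949 points, with 2 of the 4 samples near or below 0 (0.408 in 231K replicate 2 and -2.87 in 231K replicate 1) and 4.06 and 2.20 points in 232P. The exact sign-flip permutation test then gave p = 0.625. This weighting was chosen after the values had been seen, and it was run only with any overlap counted as presence. When presence needed 50% coverage, the mean difference without weighting was 13.1 points.

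**Figure D4:**
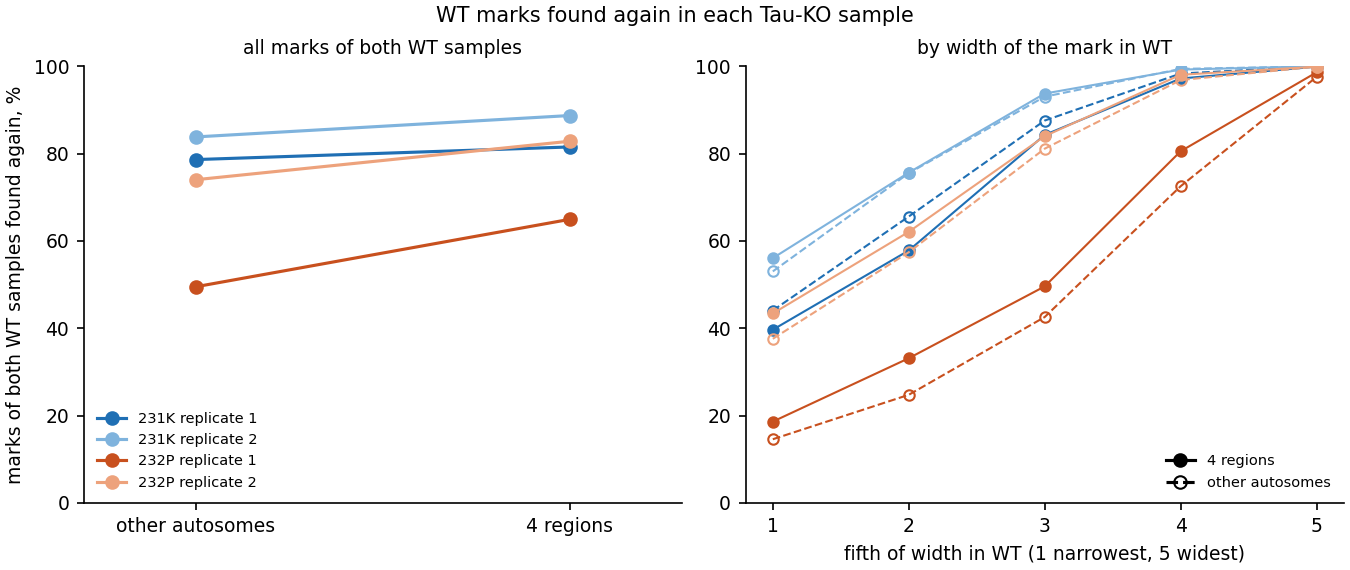
Share of marks present in both WT samples that were found again in each Tau-KO sample, in percent. The left panel sets the other autosomes beside the 4 regions, and the right panel sets 5 classes of mark width in WT for the 4 regions (filled, solid) and the other autosomes (open, dashed). Over all marks the 4 samples rise towards the regions. Within a class of width the means over the 4 samples lie close together, but single samples differ in opposite directions. In the second narrowest class 232P replicate 1 is higher in the regions (33.1% against 24.7%) and 231K replicate 1 is lower (57.8% against 65.6%).

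Within a class of width, retention differed by a few points over classes of background outside the regions and by more inside. For marks under 2 kb outside the regions, mean retention was 58.5% where WT background was under 1.1 times the floor and 61.8% where it was 1.5 or more. In the regions the same classes gave 54.1% (267 marks) and 64.5% (1184 marks). Of the 4 samples, 3 went up inside, the most in 232P replicate 2 (48.7% to 72.2%), and 232P replicate 1 went down from 43.1% to 37.5%. For marks of 5 kb or more, retention lay between 99.5% and 99.89% in every class of background, inside and outside. Over marks of all widths outside, mean retention was 72.0% under a background of 1.1 and 69.9% at 1.5 or more. Inside it was 67.9% under 1.1, 81.2% from 1.1 to 1.3 and 79.6% at 1.5 or more. Bins of 5 Mb with at least 20 marks of both WT samples gave no single direction. Across all 388 such bins, background and mean retention over the 4 Tau-KO samples had Pearson's r of 0.213 and Spearman's rho of 0.256, and across the 341 bins outside the regions these were -0.0325 and 0.126. Across the 47 bins inside they were 0.210 and 0.0445, and the samples differed there, with a rho of 0.347 and 0.399 for replicate 2 of 231K and 232P and of -0.0793 and -0.153 for replicate 1. Outside, replicate 2 had 0.288 and 0.312, and replicate 1 had 0.0236 and -0.0476. Median mark width and mean retention had a rho of 0.894 outside and 0.849 inside. Bins of a library share its depth, so no test is attached.

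Thinning the summit heights of the region peaks left retention nearly as it was. Heights and backgrounds in the regions were thinned in the computer to the background of the other autosomes, and peaks that no longer passed the threshold of their list were dropped. Between 84.9% and 91.3% of region peaks were left. The retention difference was 7.96 points after thinning and 8.01 before it, and the mean density ratio fell from 0.973 to 0.860. Peak limits stayed as called, and WT and Tau-KO lists were thinned in the same way. These values therefore cannot show what retention would be over a lower background.

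Among genes, 2349 protein-coding genes had their start in the regions. Of these, 406 (17.3%) had a mark within 1 kb of a TSS in both WT samples, against 16.5% of all protein-coding genes. The share was 22.6% on 1q, 18.2% on chromosome 7, 12.2% on 17q and 7.26% on 2p. Of the 406, 345 were marked in all 6 samples. Retention at these TSS was 95.6% and 96.8% for 231K, while 232P had 91.6% and 93.6%, above the 91.5%, 95.6%, 79.3% and 87.7% of the other autosomes. On 1q and on chromosome 7 alone retention was also higher in all 4 samples. On 17q retention was 89.3%, 94.6% and 83.9% in the 2 samples of 231K and in 232P replicate 2, below the other autosomes, and 96.4% in 232P replicate 1. On 2p, with 17 such genes, it was below them in 3 of the 4 samples. In each Tau-KO sample the marks at start sites of the 4 regions together were retained more often than all marks of the regions. The same held on the other autosomes, where all marks were retained at 78.6% and 83.8% in 231K and 49.5% and 74.0% in 232P. Retention at a TSS counts genes with any peak near it, whereas that of all marks counts merged marks.

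MAPT itself lies on 17q at chr17:45894527-46028334, inside the region. No peak overlapped it in any of the 6 samples, and the nearest peak before it was 102 to 109 kb away. The knocked-out gene thus carried no peak in the WT or the Tau-KO lists.

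Genes that make gained segments of interest in neuroblastoma were looked at next. Of 33 listed genes in the regions, 3 were marked within 1 kb of a TSS in both WT samples (9.09%, where 16.5% of all protein-coding genes were) and in all 6, and 29 had no such peak in any sample. On 2p the unmarked genes were MYCN, the oncogenic transcription factor, its neighbours DDX1 and NBAS, the receptor tyrosine kinase gene ALK, ODC1 of polyamine synthesis, GEN1, TRIB2, ID2, SOX11, TP53I3 and the DNA methyltransferase gene DNMT3A. On 1q they included MDM4, an inhibitor of p53, TPR and the kinesin gene KIF14. On 17q they were BIRC5 (survivin), the phosphatase gene PPM1D, NME1, NME2, TBX2, BRIP1, GRB2 and TK1. On chromosome 7 they were CDK6, EGFR, BRAF, TWIST1, NPY and EZH2, the gene of the PRC2 methyltransferase. None of these 29 had a peak anywhere in the gene either.

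The 3 marked genes were IGF2BP1 on 17q and MET and HDAC9 on chromosome 7. IGF2BP1, which encodes an RNA-binding protein of fetal tissues, had −log10 q-values of 28.7 and 18.6 in WT. Line 231K had 19.1 and 27.4, and 232P had 10.1 and 18.4. Peaks covered 78.6 to 90.3% of the gene with 1 kb on either side, and WT and Tau-KO values overlapped. MET, the receptor of hepatocyte growth factor, had 7.12 and 15.1 in WT. Line 231K had 12.5 and 19.4, and 232P had 5.26 and 10.6. Coverage of MET was 77.5 and 87.1% in WT, with 74.0 and 91.8% for 231K, while 232P had 30.5 and 87.7%, so that replicate 1 of 232P stood apart from the other 5. HDAC9, a class II histone deacetylase gene, had −log10 q-values between 7.01 (232P replicate 1) and 27.3 (231K replicate 2), with WT at 11.5 and 13.9. PRKCA, a protein kinase C gene on 17q, was marked in WT replicate 2 alone, at 1.14. A q-value grows with depth, and these values are not compared between samples by a test.

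PRC2 targets that the study followed lie in the regions, among them IGFBP3 and GPR37 on chromosome 7 and ITGA3 and MRC2 on 17q. The study chose them on transcripts of these lines, so they are not independent evidence of a direction. IGFBP3, which encodes a binding protein of insulin-like growth factors and a secreted factor of senescence, was marked in all 6 samples. Its fold enrichment was 5.68 and 4.58 in WT. Line 231K had 3.29 and 4.64, and 232P had 4.75 and 5.55. The Tau-KO values lay on both sides of the lower WT value, and the coverage of the gene (17.8 and 21.7% in WT, 13.7 to 24.7% in Tau-KO) overlapped as well. GPR37, ITGA3 and MRC2 had no peak at a TSS or in the gene in any sample.

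Patterning genes, which set the body plan in development, were the list most often marked in the regions. Of 59 listed genes in the regions, 39 were marked at the TSS in both WT samples (66.1%, where 16.5% of all protein-coding genes were), and 38 in all 6 samples. The leading genes were HOXB3 and HOXB7 of the HOXB cluster, EVX1 and the homeobox gene DLX4. HOXB3 had −log10 q-values of 22.9 and 31.1 in WT. Line 231K had 30.1 and 35.1, and 232P had 13.4 and 20.1. EVX1 had 17.4 and 29.7 in WT, with 22.6 and 35.6 for 231K, while 232P had 11.2 and 21.7. The order of both genes from sample to sample was nearly the same, with 232P replicate 1 lowest. No patterning gene lost its mark in either line, where 2.52% of all marked genes did in 231K and 7% in 232P, so that few losses would be seen among 39 at those shares. Unmarked exceptions included TBX2, TBX4, SOX11, PROX1 and TWIST1.

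Of 27 genes of the mesenchymal state of neuroblastoma, 9 were marked in both WT samples (33.3%, with 16.5% over all protein-coding genes) and in all 6. CAV2, a caveolin gene, had 20.9 and 20.3 in WT. Line 231K had 9.37 and 24.7, and 232P had 10.6 and 9.29. PRRX1, a homeobox regulator of this state, the cytokine gene IL6 and CRIM1, whose domain of 118 kb was the widest mark of 2p, also ranked high. Of 29 neural crest and neuronal genes, 7 were marked in both WT samples (24.1%, with the same 16.5% over all) and 5 in all 6. Leading ones were GLI3, a transcription factor of Hedgehog signalling, CACNA1E and RBFOX3, which encodes the neuronal antigen NeuN. RBFOX3 ran from 2.73 in 231K replicate 1 to 13.6 in 232P replicate 1. None of 20 housekeeping genes, ACTB and RPS27 among them, was marked in any sample, where 16.5% of all genes were marked in both WT samples.

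**Figure D5:**
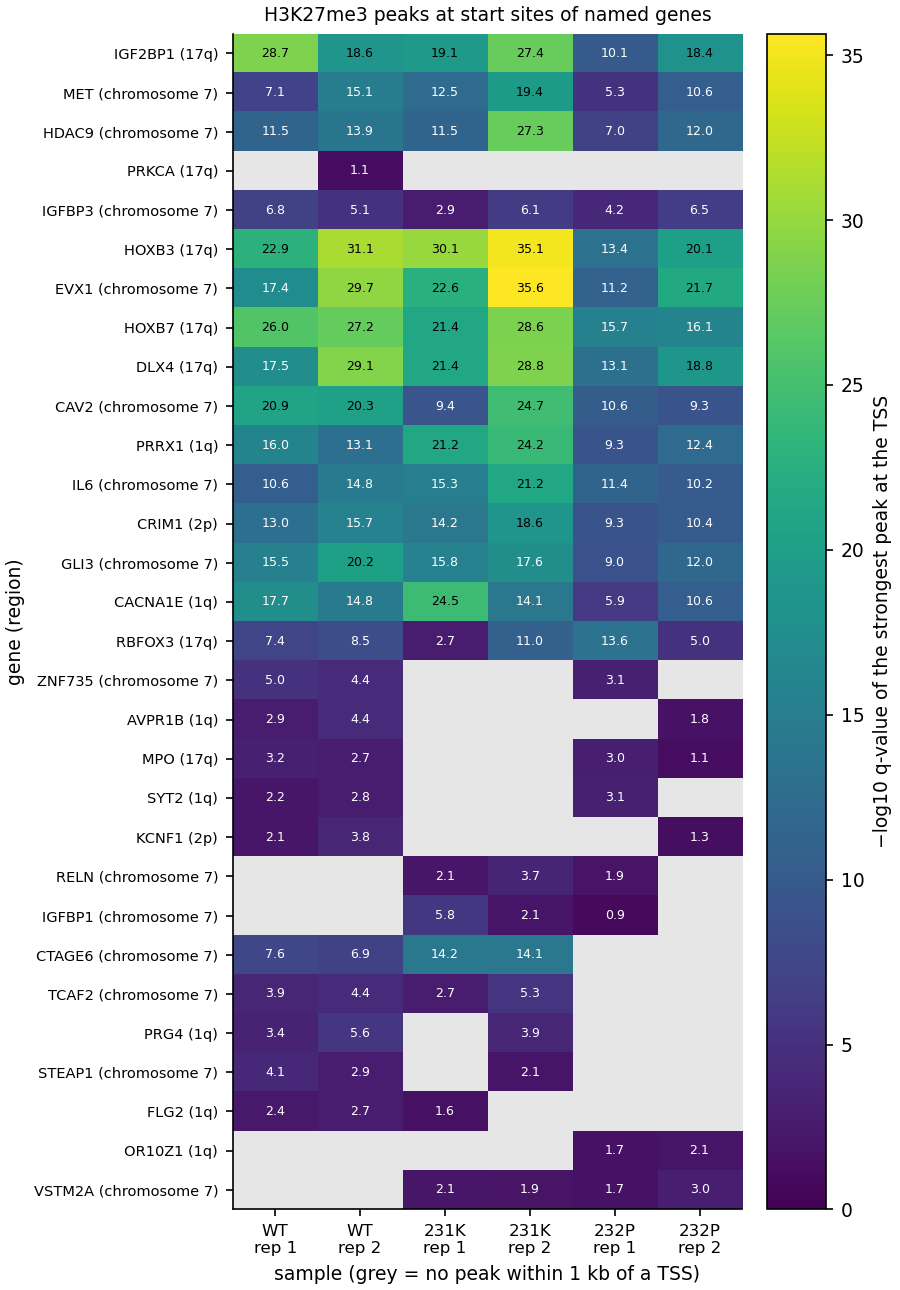
Strength of the strongest peak within 1 kb of a TSS (−log10 q-value, colour and number) for named genes of the 4 regions (rows) in the 6 samples (columns); grey marks no peak. Rows from IGF2BP1 to RBFOX3 hold list genes with a mark in at least 1 sample and the rows from ZNF735 down hold genes chosen because the mark was lost or gained in a line, with values up to 5.79 apart from CTAGE6 (up to 14.2).

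Few genes changed between WT and a Tau-KO line. In 231K, 6 of the 406 genes lost the TSS mark (1.48%, with 2.52% over all chromosomes), and in 232P 6 did (1.48%, with 7% over all chromosomes; 6.08% on the other autosomes). Genes that gained a mark numbered 5 of 1868 in 231K (0.268%, with 0.206% over all chromosomes) and 2 in 232P (0.107%, with 0.0813%). At 2 samples a group no gene was tested.

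Losses in 231K came first at ZNF735 and AVPR1B. ZNF735, a zinc finger gene on chromosome 7, had −log10 q-values of 5.04 and 4.35 in WT and no TSS peak in 231K, while 232P replicate 1 held one at 3.13. AVPR1B, a vasopressin receptor gene on 1q, had 2.92 and 4.45 in WT and 1.77 in 232P replicate 2. MPO, the myeloperoxidase gene on 17q, was at 3.2 and 2.72 in WT and was present in both 232P samples. SYT2, a synaptotagmin gene, and KCNF1, a potassium channel gene on 2p, were each held by 1 sample of 232P. In none of these 5 was the mark lost from all 4 Tau-KO samples. Marks gained in 231K included RELN (reelin, 2.12 and 3.73) and IGFBP1, next to IGFBP3 (5.79 and 2.07).

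In 232P the strongest loss was CTAGE6 on chromosome 7, with 7.64 and 6.85 in WT, 14.2 and 14.1 in 231K and none in 232P. TCAF2, a neighbour of CTAGE6 that encodes a channel-associated factor, followed with 3.86 and 4.45 in WT and 2.73 and 5.34 in 231K. Both genes have near-identical copies nearby, so reads may be shared between copies and these values are uncertain. PRG4, which encodes lubricin, STEAP1, a metalloreductase gene, and FLG2, a filaggrin family gene, were also held by 1 sample of 231K each. OR10Z1, an olfactory receptor gene, and VSTM2A were gained in 232P, with VSTM2A also present in both 231K samples at 2.1 and 1.89. With a TSS window of 2.5 kb, CTAGE6, TCAF2 and ZNF735 had a peak in all 6 samples and SYT2, PRG4 and FLG2 in 5, so that these 6 were no longer lost. Likewise VSTM2A had a peak in 6 samples and IGFBP1 in 5 with that window and were no longer gained.

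Lineage genes from the whole genome were also looked at. Of all protein-coding genes 16.5% were marked in both WT samples. Of 10 markers of adrenergic neuroblastoma, 8 had no TSS peak in any sample, among them PHOX2A, HAND2, GATA3, ISL1, TH and DBH. Of 8 markers of other cell types, CD3E, KRT5 and ALB were marked in all 6 samples, MYOD1 was marked in 3, and PTPRC, EPCAM and PECAM1 were among those with none. Most genes had no mark and a missing mark does not show that a gene is expressed, so these short lists do not check the label of the cells.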

How the data were processed

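H3K27me3 ChIP-seq was analysed in 6 samples (WT, 231K and 232P, biological duplicates). Per the study's methods, the authors used Trimmomatic for trimming, BWA for alignment (hg38) and MACS (version 2) for the peaks, here 1 list per sample; a broad setting is stated, whereas the deposited lists have summits, and which control library was used is not given in the sources used here. The deposited lists hold fold enrichment (a ratio to the local background), −log10 p-values and −log10 q-values, and a score that the authors' caller derives from q. No read totals were given, so the background floor stood in for depth. The shortest peaks differed between replicates (175 to 179 bp in replicate 1, 240 to 262 bp in replicate 2). The floor may therefore not rank the samples by depth alone.

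Summit height and background were recovered from fold enrichment (1 pseudo-read) and p. Marks were merged at 1 bp of overlap. TSS came from GENCODE 44, whose chromosome names and lengths fitted the lists. Groups followed the labels. The share of peaks in the regions was compared between genotypes by exact permutation over samples, retention by exact sign flips. The regions, members and gene lists were chosen with earlier results of these data known. Named genes were the neuroblastoma list, the study's PRC2 targets, the 4 members of each other list with the highest median percentile of −log10 q, and up to 5 lost and 3 gained genes per line, ranked by the lowest percentile. Alternatives varied thresholds, merging, depth, regions and samples. Python 3.11.15 with numpy 2.4.6, pandas 2.3.3, scipy 1.17.1, pysam 0.24.0 and samtools 1.23.1 were used, and the steps were tested on simulated data. Some genes and 1 sequence that these rules select are not reported here.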

Additional observations from a re-analysis of the deposited data

Results flagged for a closer look

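Replicate 1 of 232P stood apart in peak density. Its ratio of density in the 4 regions to the other autosomes was 1.47, and its share of autosomal peaks in the regions was 16.0%, each far from the other 5 samples for the spread of the group. The same sample was set apart by its density ratios on 1q (1.47), chromosome 7 (1.85) and 17q (0.891), the last also among the 4 Tau-KO samples alone. Of 29 sets of values examined 6 were set apart in this way, all by this sample, and chance sets apart about 1 in 20. The 6 are not independent, since the share restates the density ratio and the regional densities are parts of it. Its background ratio of 1.44 and its retention difference of 15.4 points were not set apart. This sample also had the fewest peaks and the lowest floor (1.01 reads), and the part of depth in its densities was not tested beyond the thinned and equal-number lists.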

How the results depend on the processing

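The higher retention in the 4 regions kept the direction of its mean over 4 samples under all 22 alternatives, from 0.949 to 13.1 points, and from 5.61 to 10.8 with 1 replicate left out (5.61 without 232P replicate 1). 231K replicate 1 turned below 0 when peaks were merged within 1 kb (-0.193) and when marks were weighted by width (-2.65), WT strength (-2.0) or both (-2.87). None could pass 0.05. Dropping peaks whose −log10 q-value was below 5 moved the density ratio from 0.973 to 1.47, the width ratio from 1.23 to 1.35, the q difference from 0.272 to 0.706, the Jaccard difference from 0.0800 to 0.138 and the difference in lost share of 232P from -7.65 to -12.2 points. A q-value under 0.05 gave a q difference of 0.464. Merging peaks within 1 kb gave 0.0277 for Jaccard, -0.373 for the lost share of 231K (reported -1.96) and -3.20 for that of 232P. Presence at 50% coverage gave -9.13 and -21.7. With equal numbers of the strongest peaks the width ratio was 1.32 and the fold enrichment ratio 1.021 (reported 0.986). The q difference was then 0.463 and the lost share of 232P -5.87. Thinning to the sample with the lowest floor gave -5.93 for that lost share. Without chromosome 7 these were 1.13 for width, 0.954 for fold enrichment, 0.0673 for q and 0.0425 for Jaccard. With 1 replicate left out, lost shares ran from -6.06 to -1.90 in 231K and from -14.8 to -7.49 in 232P. Without WT replicate 1 the background difference between Tau-KO and WT turned from -0.0257 to 0.0102, with a range of -0.0615 to 0.0102. The causes were not tested. A TSS window of 2.5 kb raised the genes marked in both WT from 406 to 458, with 6 lost in 231K and 8 in 232P.

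With the replicate number as a block, the exact permutation p was 0.556 for the share (1.71 points) and 0.5 for retention. The smallest possible are 0.111 and 0.5, so that no call could change. Deviations of same-numbered samples had correlations of 0.0257 to 0.0510 over 279786 marks, and there are only 2 pairs, so the samples were treated as sharing only a number, although each replicate set has a like shortest peak width (175 to 179 and 240 to 262 bp). Alternatives that weighted marks by width or strength were chosen after seeing the data. Read totals are unknown, 2 samples a group limit every test, and differences below the spread between replicates were not detectable.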

Other observations

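The widest mark of the 4 regions was a domain of 173 kb over SKAP1, a T cell adaptor gene on 17q, at chr17:48162603-48335675, present in all 6 samples. It was followed by domains of 126 kb in GLI3 on chromosome 7, of 118 kb in CRIM1 on 2p and of 108 kb in ABCB5, a transporter gene on chromosome 7. The widest on 1q was 84.3 kb over KIRREL1. Each of the 12 widest marks was found in all 6 samples.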
